A study of Mus musculus with 16 samples.

Results

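The comparison was between fetal mouse cortices with at least 1 ethanol-exposed parent and fetal cortices with none, and it asked which genes shifted the same way whichever parent was exposed. It took in all 16 libraries of the study, 12 exposed and 4 Control. The exposed side held 4 Paternal EtOH libraries (father exposed), 4 Maternal EtOH libraries (mother exposed) and 4 Dual EtOH libraries (both parents exposed), and each set of 4 held 2 male and 2 female libraries. The Control side held 2 male and 2 female libraries with no parental exposure. All were total RNA of whole cortex taken at gestational day 16 (GD16). The labels used here do not give the strain, the ethanol dose or its timing, or whether libraries of a group came from separate fetuses or litters. A p-value here therefore speaks only of the spread from library to library, part of which may be technical. Members were taken from the treatment and sex labels, with sex as a block, and genes were then sorted by whether their difference from Control had 1 sign in all 3 exposures.

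Ethanol taken by a pregnant dam reaches the fetus through the placenta and is broken down by alcohol and aldehyde dehydrogenases, and prenatal ethanol is a known cause of altered cortical growth and wiring. A father's intake can act only through the sperm, the seminal fluid or the dam's response to him, so the 3 exposures reach the fetus by different routes. At mid to late gestation the mouse cortex holds dividing radial glia, intermediate progenitors and newly formed neurons of the deep and upper layers, next to meninges, thalamus, hippocampus and choroid plexus that a dissection can carry along.

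Short non-coding RNAs stood among the genes with the smallest p-values and higher values in every exposed group, and 3 of them are printed here because each is short enough to show whole. Bc1 is a neuronal RNA made by RNA polymerase III that restrains translation at synapses, Rny3 is a Y RNA that binds the Ro60 protein, and Rnu12 is the U12 small nuclear RNA of the minor spliceosome. The sequences are those of GENCODE M21 transcripts on GRCm38, all on the plus strand, written 5′ to 3′ as DNA. They lie on chromosome 7 (Bc1, 168 bases), chromosome 6 (Rny3, 102 bases) and chromosome 15 (Rnu12, 151 bases). Coordinates are not given because the counts were made on GRCm39, a different build. Capitals mark in Bc1 the GGTTCG of the B box of its internal promoter, at bases 57 to 62, in Rny3 the TTTT that ends it, at bases 99 to 102, and in Rnu12 the ATTTTTG of its Sm protein site, at bases 75 to 81. The transcript strand alone was searched.
Bc1: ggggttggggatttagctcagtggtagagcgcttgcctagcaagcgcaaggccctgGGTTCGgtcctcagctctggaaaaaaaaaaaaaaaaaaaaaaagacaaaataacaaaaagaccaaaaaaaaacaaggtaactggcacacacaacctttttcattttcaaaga
Rny3: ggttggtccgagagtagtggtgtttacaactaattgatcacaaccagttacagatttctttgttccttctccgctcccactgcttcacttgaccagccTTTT
Rnu12: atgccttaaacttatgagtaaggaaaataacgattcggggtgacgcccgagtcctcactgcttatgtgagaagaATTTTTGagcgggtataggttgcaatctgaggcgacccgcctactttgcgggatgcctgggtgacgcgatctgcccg
Among the 10765 GENCODE transcripts of at most 300 bases, 0.873% held GGTTCG, 4.83% ended in TTTT and 1.48% held ATTTTTG. These matches describe the letters of each RNA. Bc1, Rny3 and Rnu12 have near-identical copies elsewhere in the genome, and how reads that map to several places were counted is unknown from the sources used here, so their levels are uncertain.

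The 8 male libraries held 15336566 to 19966696 counts and the 8 female libraries 26134287 to 35218456, so sex and depth went together. Xist and Y-linked counts matched the sex label of all 16. The 2 Dual EtOH female libraries stood apart, with 0.872% and 0.860% of counts on genes annotated as TEC or sense-intronic, against 0.280% to 0.534% in the other 14. Gene IDs without a symbol took 17.8% of counts in Dual EtOH male replicate 2 and 14.2% in Paternal EtOH male replicate 1, against 1.96% to 8.49% in the other males and 1.73% to 2.43% in females. Without these 2 male libraries together, a setting chosen after seeing the data, the test of any exposure against Control still called 0 genes. Among the other males, both ends of the share without a symbol were Control, 1.96% in replicate 1 and 8.49% in replicate 2. Replicates differed by more than counting noise in all 8 groups, most of all in female Control.

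No gene passed the test of any exposure against Control. The test was edgeR's quasi-likelihood test, two-sided, on the mean of the 3 exposure effects with sex as a block, with Benjamini-Hochberg adjustment over all genes tested. It called 0 of 21543 genes at an adjusted p under 0.05 (0%), whether or not 1 sign in all 3 exposures was asked for. At an unadjusted p under 0.05 there were 1099 genes (5.10%), of which 511 were higher (2.37%) and 588 lower (2.73%) in exposed cortex. DESeq2, run on the same genes and contrast, called 2 genes, Gm25395 and ENSMUSG00000118790, both higher.

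A shared sign across the exposures is common without any test. With no threshold, 9023 genes (41.9%) had 1 sign in all 3 exposures and 2160 of the 21543 had 1 sign in all 6 combinations of exposure and sex. The 3 exposures share the 4 Control libraries, so a shared sign is a filter and not separate evidence. Of the genes at an unadjusted p under 0.05, 499 higher (2.32% of all tested) and 569 lower (2.64%) had 1 sign in the 3 exposures, and 308 higher (1.43%) and 392 lower (1.82%) had it in all 6 combinations. The genes described next are the 10 of smallest p in each direction that met the last condition and had a mean log2 CPM of at least 1. None of these 20 passed. Levels are in CPM, counts scaled to a common library total with TMM, and differences are log2 fold changes of exposed over Control with their standard error.

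The 10 genes with higher values had log2 fold changes of 0.23 to 1.17 and adjusted p-values of 0.203 to 0.932 in edgeR's test. They were Xist, mt-Nd6, Bc1, Rnu12, Rny3, Slc7a2, Rnf13, Pus10, Malsu1 and Katnbl1.

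Xist, the RNA that coats and silences the inactive X chromosome, had the smallest p of all genes tested. In females it was at 682, 787 and 1671 CPM (lowest, median and highest of 6 exposed libraries), against 503 and 594 CPM in Control. Every exposed female library lay above both female Control libraries, and the highest exposed values were those of the Dual EtOH libraries, at 1641 and 1671 CPM. The log2 fold change was 0.87 ± 0.15 over both sexes (adjusted p = 0.203), a value that mixes in male libraries with 0 to 26 counts. In females alone it was 0.83 ± 0.13 and passed (adjusted p = 0.0257).

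Bc1 was measured at very different levels in the sexes. In males it was at 50.4, 52.0 and 62.2 CPM (lowest, median and highest of 6), against 35.5 and 40.2 CPM in Control. In females it was at 1.64, 2.43 and 4.21 CPM, against 0.634 and 1.16 CPM in Control. Exposed and Control libraries did not overlap within either sex, a pattern found for 20 genes higher in exposed cortex (0.0928% of those tested). The log2 fold change was 0.77 ± 0.19 (adjusted p = 0.932), with 0.67 for Paternal EtOH, 0.68 for Maternal EtOH and 0.98 for Dual EtOH. In the fit of 8 group means Bc1 was the single gene called (adjusted p = 0.0142), and in females alone it rose by 1.5 ± 0.22 (adjusted p = 0.0257), while in males its 0.50 ± 0.13 did not pass (adjusted p = 0.485).

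Rny3 was at 32.5, 49.4 and 81.3 CPM in exposed males (lowest, median and highest), against 19.3 and 40.6 CPM in Control males. It was at 6.68, 13.3 and 73.4 CPM in exposed females, against 5.13 and 9.55 CPM in Control females. The groups overlapped in both sexes, and the Dual EtOH females, at 62.2 and 73.4 CPM, were far above the other females. Rnu12, at 6.38 CPM in the median exposed library, showed the same layout, with 2.76 and 6.45 CPM in male Control and 1.15 and 2.26 CPM in female Control. For both RNAs the exposures differed among themselves, with Dual EtOH above the mean of Paternal and Maternal EtOH by 1.80 ± 0.30 for Rny3 (adjusted p of the 3-exposure test = 0.00446) and by 1.31 ± 0.29 for Rnu12 (adjusted p = 0.0203). Without both Dual EtOH female libraries the log2 fold change of Rny3, 1.14 ± 0.31 over all libraries, was 0.75.

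mt-Nd6, a complex I subunit and the only protein-coding gene on the light strand of mitochondrial DNA, was at 222, 328 and 349 CPM in exposed males, against 203 and 282 CPM in Control males. In females it was at 122, 162 and 205 CPM, against 108 and 73.4 CPM in Control. Exposed females all lay above female Control, whereas the male groups overlapped. The log2 fold change was 0.58 ± 0.12 (adjusted p = 0.657). mt-Nd6 is encoded on the other strand from its neighbours mt-Nd5 and mt-Cytb. The sources used here do not give the strand setting, so reads from the other strand across mt-Nd6 may be counted with it.

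The other 5 higher genes had log2 fold changes of 0.23 to 0.34. Rnf13, an E3 ubiquitin ligase of the endolysosomal system, was at 35.3, 38.1 and 41.2 CPM in exposed libraries (lowest, median and highest of 12), against 34.2 and 35.3 CPM in Control males and 33.5 and 27.2 CPM in Control females. Its log2 fold change was 0.23 ± 0.06, and it was the only named higher gene whose 12 exposed libraries all lay above all 4 Control libraries, with its lowest exposed and highest Control values equal to 3 digits. Malsu1, a mitochondrial ribosome assembly factor, was at 9.55, 11.2 and 12.1 CPM in exposed libraries, against 8.56 and 7.88 CPM in Control males and 10.1 and 9.0 CPM in Control females. Slc7a2, a cationic amino acid transporter, was at 14.7, 19.7 and 22.7 CPM, against 17.2 and 17.4 CPM in Control males and 10.95 and 15.3 CPM in Control females, and its log2 fold change of 0.34 was 0.22 without Control female replicate 1. Katnbl1, a regulator of the microtubule-severing enzyme katanin, had a log2 fold change of 0.28 ± 0.09, separated narrowly within both sexes, and was at 0.18 without Control female replicate 2. Pus10, a pseudouridine synthase, had 0.23 ± 0.07, with 11 of 12 exposed libraries above all Control libraries, and differed among exposures (adjusted p = 0.0406), at 16.1 ± 1.19 CPM in Paternal EtOH, 13.99 ± 0.431 in Maternal EtOH and 17.8 ± 1.15 in Dual EtOH, against 13.5 ± 0.245 in Control (SD, n = 4 each).

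**Figure D1:**
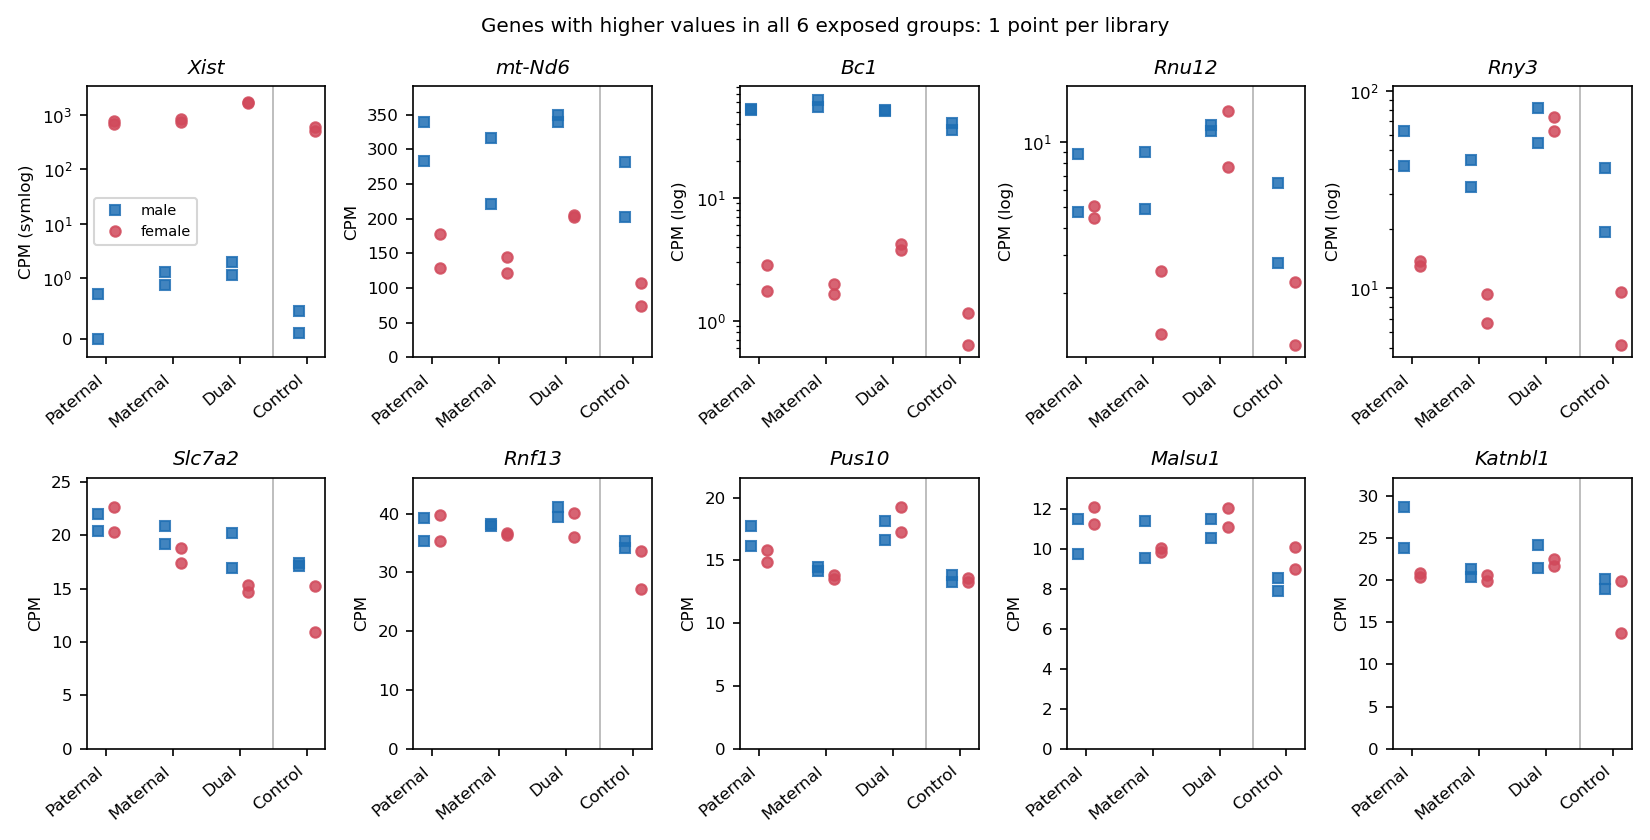
CPM of the 10 named genes with higher values in exposed cortex, 1 point per library, for Paternal, Maternal and Dual EtOH and Control (right of the grey line), with males as squares and females as circles. Bc1 exposed libraries sit above the Control libraries of their own sex (at least 50.4 against at most 40.2 CPM in males), while Rny3 and Rnu12 are highest in Dual EtOH; the Xist, Bc1, Rnu12 and Rny3 axes are logarithmic (Xist linear below 1 CPM).

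The 10 genes with lower values had log2 fold changes of -0.17 to -0.87 and adjusted p-values of 0.555 to 0.932 in edgeR's test. They were Prox1, Zdhhc22, Chrna4, Plxna1, Tmem179, Otp, Rhbdd2, BC037034, Pcsk1n and Sez6l. None of the 10 differed among the 3 exposures at an adjusted p under 0.05, against 4 of the 10 higher genes (Xist, Rnu12, Rny3 and Pus10) and 5.44% of all genes tested. For 10 genes, 0 is close to that share, and both sets were chosen for 1 sign in the 3 exposures.

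Prox1, a homeobox factor of dentate granule cells and some interneurons, was at 36.3, 40.1 and 43.9 CPM in exposed libraries (lowest, median and highest of 12), against 44.0 and 44.8 CPM in Control males and 51.1 and 65.0 CPM in Control females. All 12 exposed libraries lay below all 4 Control libraries, narrowly so in males. The log2 fold change was -0.35 ± 0.07 (adjusted p = 0.555), with -0.44 for Paternal EtOH, -0.34 for Maternal EtOH and -0.27 for Dual EtOH. In females alone Prox1 fell by 0.53 ± 0.08 on the log2 scale (adjusted p = 0.0257), and in males the value was -0.15 ± 0.09 (adjusted p = 0.615). Without Control female replicate 2 the value over both sexes was -0.22. Prox1 overlaps the antisense gene Prox1os, and the 2 cannot be told apart without a strand setting.

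Otp, a homeobox factor of hypothalamic neurons, was at 1.55, 3.33 and 4.40 CPM in exposed libraries, against 7.85 and 5.06 CPM in Control males and 4.62 and 5.62 CPM in Control females. No exposed library reached a Control library. Its log2 fold change was -0.87 ± 0.22 (adjusted p = 0.932), being -1.18 ± 0.29 in males and -0.60 ± 0.27 in females. Otp is normally made in the hypothalamus and not in the cortex.

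Tmem179, a transmembrane protein, was at 22.7, 27.1 and 29.3 CPM in exposed libraries, against 30.02 and 29.6 CPM in Control males and 30.3 and 35.9 CPM in Control females. It was the third named gene, after Prox1 and Otp, with all 12 exposed libraries below all 4 Control libraries, a pattern found for 9 genes lower in exposed cortex (0.0418% of those tested) and in the other direction for 8 (0.0371%). Rhbdd2, a rhomboid family protein, was at 27.8, 30.6 and 33.8 CPM, against 35.2 and 33.5 CPM in Control males and 38.2 and 36.4 CPM in Control females, with 11 of 12 exposed libraries below all Control libraries.

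The other lower genes included proteins of neuronal signalling. Chrna4, a nicotinic acetylcholine receptor subunit, was at 12.3, 16.2 and 19.2 CPM in exposed libraries, against 22.4 and 22.8 CPM in Control males and 15.7 and 28.9 CPM in Control females. Exposed and Control males were separate, while in females 1 Control library lay within the exposed range and the other above it. Zdhhc22, a palmitoyltransferase, was at 4.42, 5.42 and 6.87 CPM, against 7.61 and 9.50 CPM in Control males and 5.88 and 10.3 CPM in Control females, the same layout. Pcsk1n, an inhibitor of prohormone convertase, was at 33.9, 40.6 and 51.6 CPM, against 48.6 and 44.0 CPM in Control males and 44.3 and 73.5 CPM in Control females. These 3 genes had log2 fold changes of -0.50 ± 0.12, -0.58 ± 0.13 and -0.32 ± 0.09. Without Control female replicate 1, the lower female Control for each, the values were -0.67, -0.73 and -0.46. Without Control female replicate 2 they were -0.34, -0.43 and -0.18. Plxna1, a semaphorin receptor, was at 244, 277 and 302 CPM, against 304 and 297 CPM in Control males and 312 and 346 CPM in Control females. Sez6l, a neuronal membrane protein, and BC037034 had log2 fold changes of -0.17 ± 0.05 and -0.19 ± 0.05.

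**Figure D2:**
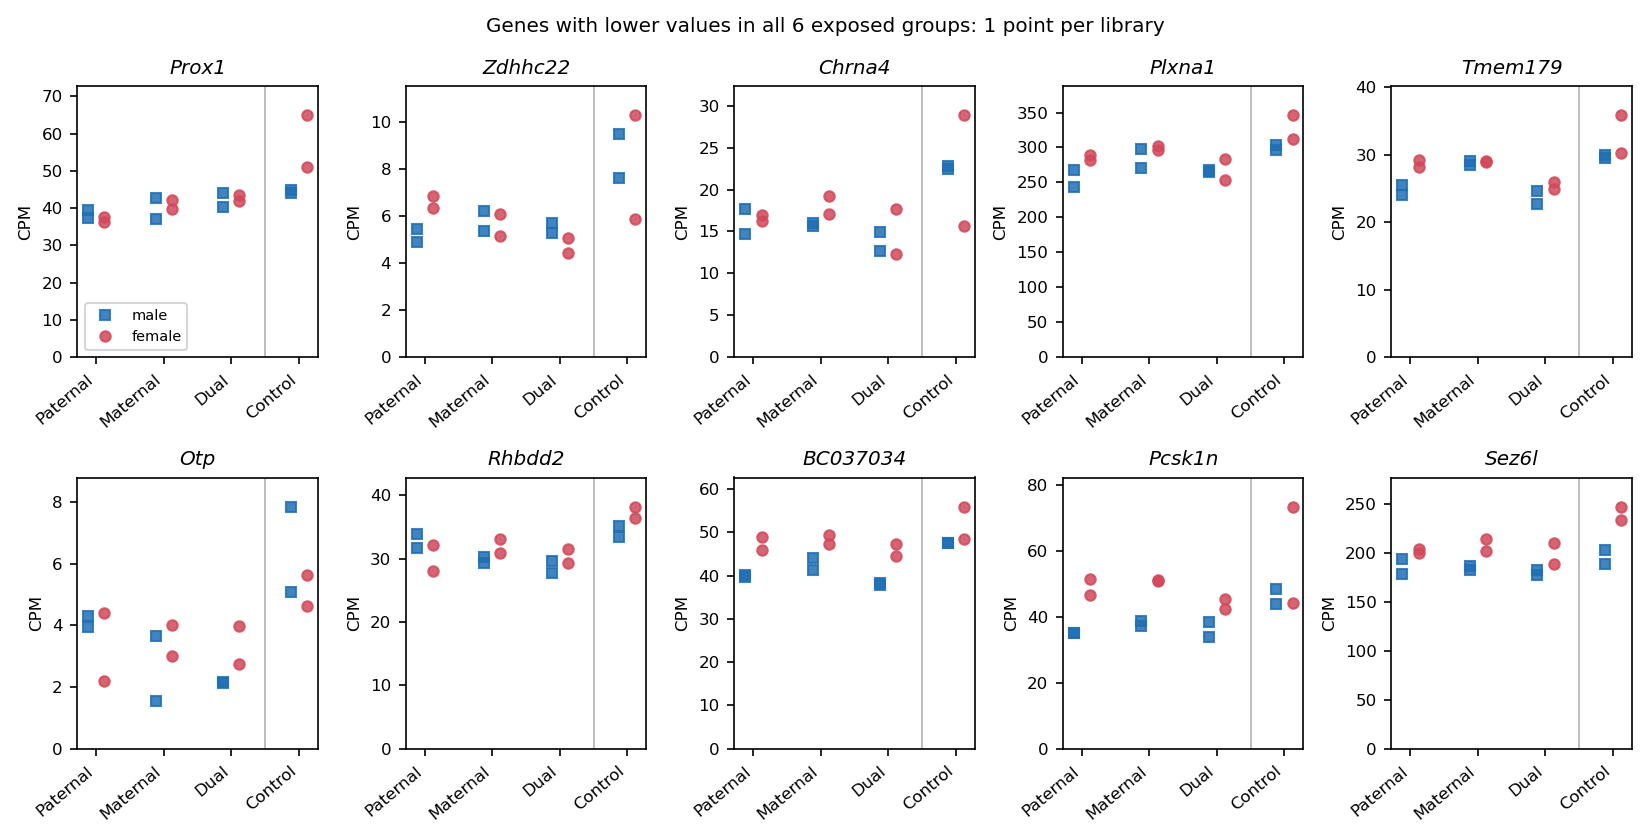
CPM of the 10 named genes with lower values in exposed cortex, 1 point per library, for Paternal, Maternal and Dual EtOH and Control (right of the grey line), with males as squares and females as circles and every axis starting at 0. Prox1, Tmem179 and Otp have all exposed points below all Control points, while for Chrna4, Zdhhc22 and Pcsk1n the female Control replicates lie far apart (15.7 and 28.9 CPM for Chrna4).

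The 38 gene lists covered cortical and neighbouring cell types, metabolism, stress, signalling and imprinting. No member of any list passed the test over all genes. Each list is therefore described by its count of members at an unadjusted p under 0.05 and its median log2 fold change, to be read beside 2.37% higher, 2.73% lower and a median of -0.0036 over all genes tested. In bulk RNA, fewer cells of a type and less RNA per cell cannot be told apart.

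Markers of thalamus and hypothalamus, the regions beneath the cortex, had the lowest median, -0.33 over 13 measured genes. All 13 had values below 0, 6 were lower at an unadjusted p under 0.05 and 10 were lower in all 3 exposures. The 13 included Prox1os, which cannot be told apart here from Prox1, a member of the hippocampus and cortical hem list. The medians were -0.39 for Paternal EtOH, -0.43 for Maternal EtOH and -0.32 for Dual EtOH. The members of smallest p were Otp, Calb2 (-0.46 ± 0.12), a calcium-binding protein, Sim1 (-0.70 ± 0.19), a hypothalamic transcription factor, and Lhx9 (-0.54 ± 0.15), a thalamic one. Their CPM summed to 181, 198 and 218 in exposed libraries (lowest, median and highest of 12), against 209 and 232 in Control males and 221 and 288 in Control females. With both sexes together, all 12 exposed libraries lay below both female Control libraries and Control male replicate 2. Control male replicate 1 lay within the exposed range, and Control female replicate 2 was the highest of the 16. Sim1 was lower mostly in males (-1.11 ± 0.24, against -0.26 ± 0.24 in females), and Calb2 (-0.10 ± 0.16 in males, -0.74 ± 0.15 in females) and Lhx9 (-0.13 ± 0.20 and -0.87 ± 0.18) mostly in females, a difference between sexes that none of these genes passed. Without Control female replicate 2 the list's median was -0.19, Calb2 was at -0.26 and Lhx9 at -0.30, and over the other libraries left out in turn the median was as low as -0.44.

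Meninges and fibroblast markers had the highest median, 0.29 over 16 genes, and all 16 had values above 0, but only 6 were higher in all 3 exposures and 3 were at an unadjusted p under 0.05. The medians were 0.61 for Paternal EtOH, 0.44 for Maternal EtOH and -0.12 for Dual EtOH, and -0.03 in males and 0.67 in females. Ogn, an extracellular matrix proteoglycan, was at 9.97, 12.7 and 20.8 CPM in exposed females, against 2.53 and 5.64 CPM in Control females, and it rose by 1.72 ± 0.29 there (adjusted p = 0.0257). In males its lowest and median exposed values were 8.89 and 17.8 CPM, against 15.6 and 16.3 CPM in Control males. Igf2, a fetal growth factor, was at 13.1, 16.1 and 24.9 CPM in exposed libraries, against 14.6 and 14.7 CPM in Control males and 4.68 and 14.3 CPM in Control females. The summed CPM of the list was 361 to 832 in exposed libraries, against 189 in Control female replicate 1 and 578 to 688 in the other Control libraries. The median was 0.01 without Control female replicate 1 and 0.46 without Control female replicate 2, and for Igf2 the log2 fold change of 0.53 ± 0.20 was 0.24 without the first of these. How far the amount of meninges bore on other genes was not tested.

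Synaptic genes had a median of -0.08 over 27 genes, with 22 below 0, 6 lower at an unadjusted p under 0.05, 0 higher, and 17 lower in all 3 exposures. The members of smallest p were Bsn (-0.18 ± 0.05) and Nrxn2 (-0.15 ± 0.06), of the presynaptic active zone and membrane, Nlgn2 (-0.12 ± 0.04), an adhesion molecule of inhibitory synapses, and Syn1 (-0.15 ± 0.06), a synaptic vesicle protein. Nlgn2 was at 277, 302 and 339 CPM in exposed libraries, against 313 and 310 CPM in Control males and 324 and 369 CPM in Control females. Syn1 was at 113, 124 and 135 CPM, against 136 and 133 CPM in Control males and 123 and 158 CPM in Control females. Male groups did not overlap for either gene and female groups did. The list's median was -0.15 without Control female replicate 1 and -0.02 without Control female replicate 2. Nrxn2 was at -0.22 and -0.07 in the same order, and Syn1 at -0.08 without Control female replicate 2.

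Cajal-Retzius cell markers, genes of the layer I neurons that secrete reelin, had a median of -0.10 with all 9 below 0. At an unadjusted p under 0.05, 3 were lower, and 5 of the 9 were lower in all 3 exposures. The medians were -0.08 for Paternal EtOH, -0.05 for Maternal EtOH and -0.23 for Dual EtOH. The member of smallest p, Calb2, is also in the thalamus and hypothalamus list. Hippocampus and cortical hem markers had a median of -0.12 over 10 genes, of which 7 were below 0. At an unadjusted p under 0.05, 3 were lower, led by Prox1 and with Nrp2 (-0.18 ± 0.07), a semaphorin co-receptor. Only 4 were lower in all 3 exposures, and the medians were -0.18 for Paternal EtOH, -0.18 for Maternal EtOH and 0.02 for Dual EtOH. The list's median was -0.21 without Control female replicate 1 and -0.13 without Control female replicate 2. Upper-layer neuron markers had a median of 0.07 over 11 genes with 2 higher, the POU factors Pou3f2 (0.20 ± 0.08) and Pou3f3 (0.12 ± 0.06). Without Control female replicate 2 these were at 0.11 and 0.08 and the median at 0.04, and Pou3f3 was at 0.20 without Control female replicate 1. Radial glia, intermediate progenitors and deep-layer neurons had medians of 0.04, 0.01 and 0.02, with 0, 1 and 0 members higher and none lower at an unadjusted p under 0.05. These medians depended on single Control libraries, at 0.12, 0.20 and 0.08 without Control female replicate 1 and -0.01, -0.08 and -0.03 without Control female replicate 2. Upper-layer markers summed to 2636 to 3137 CPM in exposed and 2684 to 2848 CPM in Control libraries, with no other tissue to compare.

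Over the 13 mRNAs encoded by mitochondrial DNA the median was 0.16, with 11 above 0 and 4 higher at an unadjusted p under 0.05. Beside mt-Nd6 these were the complex I subunits mt-Nd2 (0.35 ± 0.12), mt-Nd5 (0.20 ± 0.08) and mt-Nd1 (0.23 ± 0.10). mt-Nd2 was at 615, 885 and 1080 CPM in exposed libraries, against 791 and 971 CPM in Control males and 571 and 398 CPM in Control females, so the groups overlapped in males and were separate in females. Without Control female replicate 2 the list's median was 0.11, mt-Nd2 was at 0.20, mt-Nd5 at 0.13 and mt-Nd1 at 0.11. The medians were 0.11, 0.04 and 0.33 for Paternal, Maternal and Dual EtOH. The 78 nuclear genes for oxidative phosphorylation had a median of -0.03, with 2 higher and 1 lower at an unadjusted p under 0.05, led by Usmg5 (0.17 ± 0.06), an ATP synthase subunit.

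Among 40 measured imprinted genes, which are expressed from the copy of 1 parent, 4 were higher and 5 lower at an unadjusted p under 0.05, with a median of -0.02. Mest was at 125, 156 and 183 CPM in exposed libraries, against 175 and 172 CPM in Control males and 202 and 187 CPM in Control females, a log2 fold change of -0.20 ± 0.06. Copg2, its neighbour on the same chromosome, had -0.13 ± 0.04. H19, a fetal non-coding RNA, was at 101, 137 and 221 CPM, against 138 and 132 CPM in Control males and 71.3 and 99.7 CPM in Control females, a log2 fold change of 0.39 ± 0.12. Slc38a4, an amino acid transporter, had 0.51 ± 0.18. H19 exposed females all lay above female Control, and the male groups overlapped.

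The genes closest to ethanol itself showed no member at an unadjusted p under 0.05. Of the 11 alcohol and aldehyde metabolism genes listed, 9 were measured (Adh1 and Cyp2e1 did not pass the filter on low counts), with a median of 0.03. Aldh2, the mitochondrial enzyme that clears acetaldehyde, was at 37.7, 43.3 and 48.0 CPM in exposed libraries, against 40.6 and 45.2 CPM in Control males and 47.1 and 52.6 CPM in Control females, and its log2 fold change of -0.10 ± 0.06 did not pass, ranging from -0.16 to -0.03 without Control male replicate 1 and Control female replicate 2. Retinoic acid genes (17 measured, median 0.06), antioxidant enzymes under NRF2 (17, median 0.01), unfolded protein response genes (19, median 0.02) and p53 targets (17, median -0.01) likewise held 0 members at an unadjusted p under 0.05 in either direction. With single libraries left out in turn, these 5 medians ran from -0.05 to 0.10, and each changed sign at least once.

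**Figure D3:**
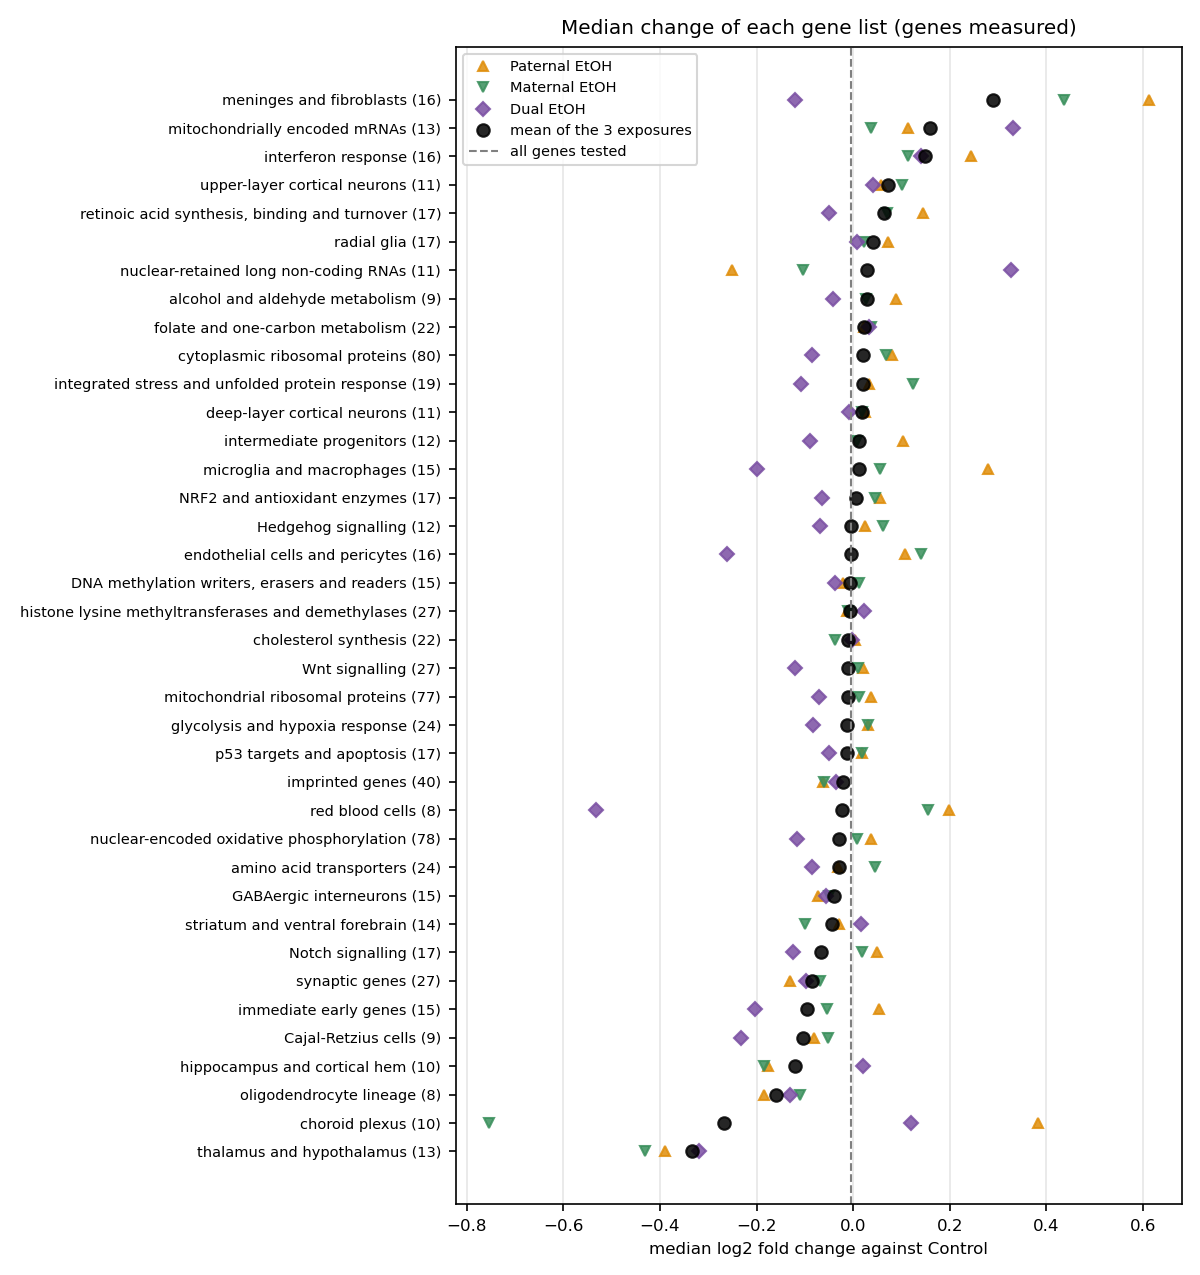
Median log2 fold change against Control of each of 38 gene lists (number of genes measured in parentheses), for Paternal, Maternal and Dual EtOH and for their mean, with the median of all genes tested as a dashed line. Thalamus and hypothalamus markers lie at -0.32 to -0.43 in all 3 exposures, whereas meninges markers are at 0.61 and 0.44 in Paternal and Maternal and -0.12 in Dual EtOH.

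Males and females were then taken apart, since they share no library. In males any exposure against Control called 0 genes (0%) by edgeR and 1956 (9.08%) at an unadjusted p under 0.05, while DESeq2 called 2. The count was 1, 13 and 1 without Control male replicate 1, Control male replicate 2 and Dual EtOH male replicate 1. In females it called 25 genes (0.116%), of which 23 rose (0.107%) and 2 fell (0.00928%). At an unadjusted p under 0.05 there were 3340 (15.5%). The 2 that fell were Prox1 and, named after its value was seen, Wdr6, and the 23 that rose included Xist, Bc1, Ogn, Arglu1 and Snhg14. The female count rested on single libraries: it was 0 without Maternal EtOH female replicate 1 or Dual EtOH female replicate 2, 4 and 5 without Maternal EtOH female replicate 2 and Paternal EtOH female replicate 2, 826 without Control female replicate 1 and 1181 without Control female replicate 2. It was 42 and 41 without Control male replicate 1 and Control male replicate 2.

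The effect itself, tested as male minus female, differed in 42 genes (0.195%), 3 with a higher effect in males (0.0139%) and 39 with a higher one in females (0.181%). None of the 20 named genes was among them, but these were chosen for 1 sign in both sexes, which works against such a difference. Ldhb, a lactate dehydrogenase subunit, was at 99.0, 108 and 122 CPM in exposed males, against 92.4 and 87.0 CPM in Control males. In females it was at 90.4, 98.5 and 105 CPM, against 130 and 112 CPM in Control. Exposed libraries were thus all above Control in males and all below Control in females, and the effects were 0.29 ± 0.07 and -0.30 ± 0.07 (adjusted p of their difference = 0.0327). Rtcb, the tRNA ligase, and Psmb6, a proteasome subunit, were the other 2 of the 3. In the other direction, Zmym6, a zinc finger protein, was at 26.2, 28.6 and 32.8 CPM in exposed males, against 37.8 and 36.8 CPM in Control males, and at 29.6, 31.2 and 35.9 CPM in exposed females, against 24.1 and 26.2 CPM in Control females (adjusted p = 0.0227). Arglu1 and Pnisr, both factors of RNA splicing, and the long imprinted-domain RNAs Snhg14 and Kcnq1ot1 likewise had lower fitted values in exposed males and higher ones in exposed females. The highest female values of both long RNAs were in the 2 Dual EtOH libraries that stood apart. Kcnq1ot1 was at 241 and 283 CPM there and at 90.3 to 125 CPM in the other exposed females, against 84.95 and 96.6 CPM in Control females. Snhg14 was at 202 and 242 CPM there and at 133 to 148 CPM in the others, against 111 and 113 CPM in Control females. This count also rested on single libraries: it was 2460 without Control female replicate 2, 177 and 172 without Control female replicate 1 and Control male replicate 1, 2 without Control male replicate 2 and 0 without Maternal EtOH female replicate 1 or without both male libraries highest in counts on IDs without a symbol. It was 124 without Paternal EtOH male replicate 2, 88 without Dual EtOH male replicate 1, and 5 to 10 without Paternal or Maternal EtOH male replicate 1, Dual EtOH male replicate 2, Paternal or Maternal EtOH female replicate 2 or Dual EtOH female replicate 2.

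Across genes the male and female effects ran in opposite directions. Pearson's r between them was -0.335 and Spearman's rho -0.304 over the 13932 genes with a mean log2 CPM of at least 1, given as a description since genes are not independent and each sex shares its 2 Control libraries. Of 776 genes higher in males at an unadjusted p under 0.05, 20 (2.58%) were also higher in females, against 8.08% of all genes, and 216 (27.8%) were lower, against 7.42%. Of 1180 genes lower in males, 27 (2.29%) were lower in females and 241 (20.4%) higher. The 80 cytoplasmic ribosomal protein genes had medians of 0.16 in males and -0.13 in females, and 78 oxidative phosphorylation genes 0.10 and -0.15, so their medians over both sexes, 0.02 and -0.03, joined opposite signs. Without both Dual EtOH female libraries the female medians were -0.05 and -0.09, and without Control female replicate 1 the ribosomal one was -0.08. The relation across genes rested on 2 Control libraries, with r -0.024 and rho 0.075 without Control female replicate 1 and r -0.050 and rho -0.124 without Control male replicate 2. It was r -0.441 without Control female replicate 2 and r -0.141 without both Dual EtOH female libraries. The overlap of genes rested on Control female replicate 1 and Control male replicate 2 too. Without either, genes higher in males were no longer lower in females more often than all genes were. They were then higher in females more often than all genes were.

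**Figure D4:**
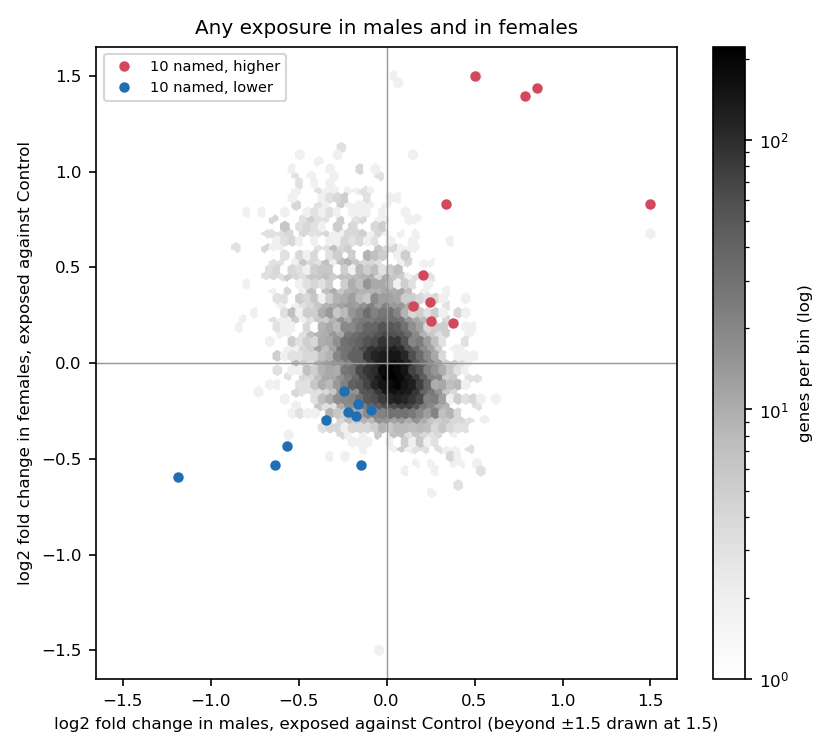
Log2 fold change of exposed against Control cortex in males (horizontal) and females (vertical) for 13932 genes with a mean log2 CPM of at least 1, shaded by genes per bin on a log scale, with the 10 named higher genes in red and the 10 named lower genes in blue (values beyond ±1.5 are drawn at 1.5). The cloud leans from upper left to lower right (Pearson's r -0.335), and the 20 named genes, chosen for 1 sign in both sexes, lie in the other 2 corners.

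The exposed groups also differed among themselves. A test of the 3 exposures, which uses no Control coefficient, called 1173 genes (5.44%) and found 4125 (19.1%) at an unadjusted p under 0.05. The genes described here were chosen for small p in it. Their mean in Dual EtOH cortex lay above or below both single-exposure means. Svet1, a non-coding RNA of upper-layer precursors made from an intron of Unc5d, was at 12.2 ± 7.11 CPM in Dual EtOH, against 3.95 ± 0.782 in Paternal EtOH, 3.87 ± 0.442 in Maternal EtOH and 5.06 ± 1.72 in Control (SD, n = 4 each), and the Dual values were above the mean of the single exposures by 1.64 ± 0.25 on the log2 scale (adjusted p = 0.00334). Svet1 was at 21.4 and 13.9 CPM in the Dual EtOH females and at 8.76 and 4.90 CPM in the Dual EtOH males. The lowest of these lay beside Paternal EtOH male replicate 2 (4.85 CPM) and below both Control males (5.04 and 7.48 CPM). Lrtm1 and Slain1os were also highest in Dual EtOH, with differences of 1.46 ± 0.22 and 1.08 ± 0.16. Lower in Dual EtOH were the endothelial adhesion molecule Pecam1, at 18.2 ± 2.73 CPM, against 25.8 ± 1.22 in Paternal EtOH, 26.4 ± 0.385 in Maternal EtOH and 23.9 ± 2.80 in Control, and Hbb-bs, an adult beta globin, at 244 ± 80.2, against 501 ± 182, 449.5 ± 129 and 367 ± 59.8 CPM in the same order. Genes like these have opposite signs in Dual EtOH and the single exposures, and a mean over the 3 takes them toward 0: Pecam1 averaged -0.05 ± 0.08 and Hbb-bs 0.03 ± 0.15. By library Hbb-bs overlapped, at 319 and 308 CPM in Dual EtOH males, against 302 CPM in Paternal EtOH male replicate 1. Taken singly, Paternal and Maternal EtOH against Control each called 0 genes (0%) and Dual EtOH called 183 (0.849%), 155 higher (0.719%) and 28 lower (0.130%); 1385 (6.43%) and 547 (2.54%) genes were at an unadjusted p under 0.05 for Paternal and Maternal EtOH. The count among exposures was 212 and 265 without Dual EtOH female replicates 1 and 2, which carried the raised TEC and sense-intronic share, 677 to 701 without either Paternal EtOH female library, 1807 without Dual EtOH male replicate 2 and 1890 without Control female replicate 1.

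The count of 0 for any exposure against Control held for 13 of the 16 libraries left out in turn. Without Control female replicate 1 it was 13, with 4 genes higher and 9 lower. The 9 included Chrna4, Zdhhc22 and Pcsk1n. Without Control male replicate 2 it was 7, all higher. These were Xist, mt-Nd6, Mir6236, Gm15564 and 3 IDs without a symbol, and the last 5 had log2 fold changes of 2.89 to 6.85 there, against 0.71 to 1.45 with all libraries. Without Paternal EtOH male replicate 2 it was 1, Xist. It was also 0 without both Dual EtOH female libraries, without all Dual EtOH or all Maternal EtOH libraries, and with the gene IDs that have no symbol left out before scaling.

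**Figure D5:**
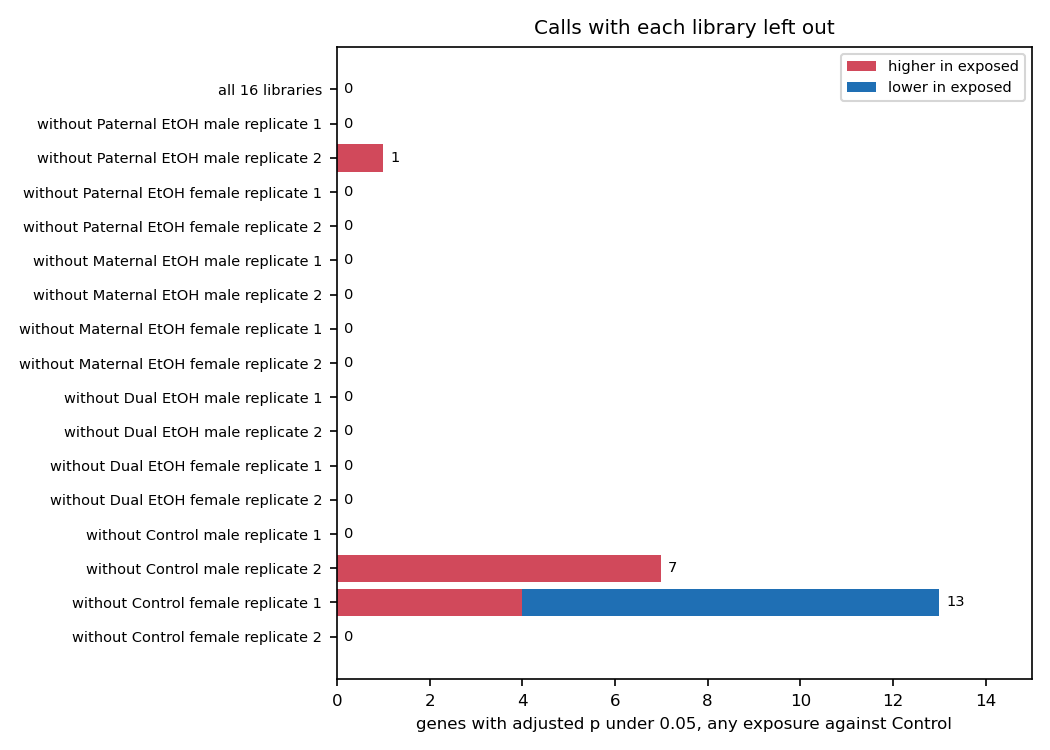
Number of genes at an adjusted p under 0.05 for any exposure against Control with all 16 libraries and with each library left out in turn, split into higher (red) and lower (blue) in exposed cortex. The count is 0 except without Control female replicate 1 (13), Control male replicate 2 (7) and Paternal EtOH male replicate 2 (1).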

How the data were processed

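Counts per gene, 1 deposited table per library, were made by the authors from total RNA libraries (Illumina TruSeq, per the labels' protocols) with Trimmomatic, STAR and featureCounts on GRCm39, also called mm39, per the submitters' processing notes. The sources used here give neither versions nor the annotation release, the strand setting or the handling of multiply mapped reads. Each table held 55359 gene IDs, of which 52083 matched a symbol in GENCODE M21 and the reference tables.

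Groups came from the treatment and sex labels. Genes were kept by edgeR's filterByExpr over the 8 groups (minimum count 10, minimum total 15), leaving 21543. In R 4.3.3, edgeR 4.0.16 (TMM, glmQLFit and glmQLFTest) fitted sex plus a 4-level exposure with 11 residual degrees of freedom; effects within a sex, the male minus female effect and signs by group came from a fit of 8 group means. P-values are two-sided and Benjamini-Hochberg adjusted over all genes of a comparison, with a threshold of 0.05. Fits were tested on simulated data. The alternatives tried were no filter, DESeq2 1.42.0 and its size factors, a 2-level exposure, 8 group means, the replicate number as a block and subsets of libraries; the cross-gene comparison of the sexes under these settings was chosen after seeing the data.

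The comparison, the 38 gene lists and the tests were chosen with earlier results of these data known. Genes named were the 10 of smallest p per direction with 1 sign in all 6 groups, with names of predicted genes and clones left out and log2 CPM averaging 1 or more, up to 4 of smallest p per list, and up to 5 per direction for the other contrasts. Depth per library limits the precision of low CPM values. Where 1 library of a group is left out, the remaining one is assumed to vary like the other groups.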

Additional observations from a re-analysis of the deposited data

Results flagged for a closer look

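Among 63 genes examined in 252 groups of 4 libraries (Paternal, Maternal or Dual EtOH or Control, both sexes together), 8 had 1 library set apart from the other 3 by Dixon's test at the 95% level, and chance sets apart about 1 group in 20. Of these, 6 were in female Control. Control female replicate 2 was high for Tmem179 (35.9 CPM, against 29.6 to 30.3 in the other Control libraries), BC037034 (56.0, against 47.5 to 48.4), Pcsk1n (73.5, against 44.0 to 48.6) and Nrxn2 (464, against 349 to 359). Control female replicate 1 was low for Igf2 (4.68 CPM, against 14.3 to 14.7) and high for Pou3f3 (557, against 445 to 463). The other 2 were Rnu12 in Paternal EtOH male replicate 2 (8.85 CPM, against 4.44 to 5.08 in the other Paternal EtOH libraries) and Pou3f3 in Maternal EtOH male replicate 1 (479, against 532 to 543).

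The effect of any exposure, as log2 fold change in males minus that in females, passed edgeR's test of the difference for 8 of the 10 genes named. It was positive for Ldhb (0.58), Rtcb (0.41) and Psmb6 (0.47) and negative for Zmym6 (-0.72), Snhg14 (-0.80), Arglu1 (-0.60), Pnisr (-0.66) and Kcnq1ot1 (-1.02). Gpat4 (0.38) and Rps27 (0.54) did not pass (adjusted p = 0.0597 and 0.0617), but all their exposed male libraries lay above Control males and all their exposed female libraries below Control females. These 10 values all rest on 2 Control libraries per sex. The 10 genes were chosen by smallest p in this same test. Neither the count of 8 nor the separation of Gpat4 and Rps27 is therefore evidence for a difference.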

How the results depend on the processing

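Of 1320 values for 44 genes under 30 settings, 1288 kept their direction and side of the threshold and 30 kept direction and newly passed. Of these 30, 20 came from the fit with no filter. The other 2 values changed sign, Ogn (-0.0187) and Aldh2 (0.0183) in male libraries alone. The cause of no change was tested. The 44 genes were chosen by small p in these same data, and none passed the test of any exposure. A value therefore counted as kept wherever its sign held and it stayed uncalled, so 1288 is not evidence for any gene. The 0 genes called for any exposure became 2 with DESeq2, 102 with no filter (59 higher, 43 lower, all but 1 also tested in the filtered fit), 1 with 8 group means, 1 without all Paternal EtOH libraries, 4 in males alone, 6 in females alone and 0 to 13 with 1 library left out. With 1 sign in the 3 exposures these were 2, 86, 1, 1, 4, 4 and 0 to 13, and with 1 sign in both sexes too 2, 49, 1, 1, 4, 4 and 0 to 13. List members called were 24 with no filter, 1 without all Paternal EtOH libraries and 0 to 2 with 1 library left out. The 1173 genes among exposures became 1938 with DESeq2, 2325 with no filter and 212 to 1890 with 1 library left out. The 42 genes for male minus female became 639, 1204 and 0 to 2460, the 0 within males 2, 216 and 0 to 13, and the 25 within females 468, 833 and 0 to 1181, in the same order. Replicate numbers did not pair the libraries: over 28 pairs of groups the correlation of same-numbered deviations ran from -0.335 to 0.360 (median 0.02, 6 over 0.1). With the replicate block 0 genes passed for any exposure, 71 for male minus female and 64 within females. Without both male libraries highest in counts on IDs without a symbol, a setting added after seeing the data, the 42 became 0. The 4 Control libraries set every comparison with them, and the lower depth of males limits low genes there.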

Other observations

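Genes whose exposed and Control libraries did not overlap within either sex were few, 20 higher (0.0928% of those tested) and 22 lower (0.102%), and none passed edgeR's test over both sexes. The number that random order of the libraries would give was not worked out, for this pattern or for the one over all 16 libraries. Separation alone is therefore not taken as a result. The genes given here were named after their values were seen. With lower values in exposed cortex they included Plxnc1 (log2 fold change -0.14 ± 0.05), a semaphorin receptor, Celsr2 (-0.09 ± 0.04), an atypical cadherin of planar polarity, Numbl (-0.14 ± 0.05), an adaptor of Notch signalling in progenitors, Shisa6 (-0.23 ± 0.07), an AMPA receptor auxiliary protein, Sp9 (-0.17 ± 0.06), a transcription factor of striatal and interneuron precursors, and Fst (-0.37 ± 0.11), an activin antagonist. With higher values they included Ppid (0.15 ± 0.05), a cyclophilin, and Zfp654 (0.21 ± 0.07).

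In the fit of male libraries alone, 4 genes were called. Bc1 rose (0.50), and Snhg11 (-0.87), Trank1 (-0.48) and Meg3 (-0.76) fell. Snhg11 and Meg3 are long non-coding RNAs of neurons, Meg3 from an imprinted cluster. None of the 4 was called over both sexes in the fit with sex as a block, where Meg3 was at -0.30, Snhg11 at -0.27 and Trank1 at -0.16. With Bc1 set aside, none of them was among the 25 genes called in females.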
